A study of Homo sapiens with 18 samples.

Results

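The expression of 9 genes that set the oxygen-dependent turnover and activity of hypoxia-inducible factor (HIF), or act on the proteins that do, was examined in 3 human cell lines in normoxia and hypoxia. The genes were EGLN1, EGLN2, EGLN3, P4HTM, HIF1AN, VHL, CITED2, SIAH1 and SIAH2. They were listed by name for their known roles, with earlier results of these data known, and all 9 had a row among the 23106 genes of the count tables.

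HIF is a dimer of an oxygen-regulated alpha subunit and a stable beta subunit. In oxygenated cells, prolyl hydroxylases that use oxygen, 2-oxoglutarate and iron mark the alpha subunit, and the von Hippel-Lindau protein then captures it for ubiquitination and destruction in the proteasome. A separate asparaginyl hydroxylase blocks the recruitment of the p300 and CBP coactivators. Several genes of this system are themselves known HIF targets, so that the pathway limits its own output.

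PolyA+ RNA was sequenced from HKC-8 cells, a human renal proximal tubule line, from RCC4 cells, a renal carcinoma line that lacks functional VHL and here carried a stably transfected wild-type VHL, and from HepG2 hepatocellular carcinoma cells. Each line was grown in normoxia and in hypoxia with 3 replicates per condition, giving 18 samples. The labels give the hypoxic exposure as 0.5% oxygen for 16 h in HKC-8 and HepG2 cells and as 1.0% for 24 h in RCC4 cells, whereas the study's text gives 1 exposure for the RNA-seq of all lines. In HKC-8 cells the sample titles state 0.1% for hypoxia, against 0.5% in the remaining labels. Differences between RCC4 and the other lines in their response cannot be told apart from a difference in exposure, and by the titles the same holds for HKC-8 against HepG2 cells. The labels do not say whether replicates were separate cultures, so p-values measure the spread between these samples, which may be technical. In a bulk culture, fewer cells with a transcript and less transcript per cell cannot be told apart.

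HKC-8 samples held 75441764 to 97984260 counts, RCC4 samples 42045335 to 51794355 and HepG2 samples 40915980 to 48355303, and 3 counts equalled 0.0306 to 0.0733 CPM (counts scaled to a total of 1e+06). The spread between replicates differed too, with a common biological coefficient of variation of 0.135 in HKC-8 cells, 0.0437 in RCC4 cells and 0.0733 in HepG2 cells, and a change of a given size thus passed more readily in RCC4 cells. All 8 liver markers examined were above 1 CPM in every HepG2 sample, with a summed level of 33511 to 42082 CPM, against 0 of 8 in HKC-8 and 1 of 8 in RCC4 cells. Of 8 kidney markers, 3 were above 1 CPM in every HKC-8 sample, 6 in every RCC4 sample and 3 in every HepG2 sample. PAX8, a kidney lineage factor, stood at 165 ± 23.9 CPM in normoxic HKC-8 cells, 132 ± 4.81 in normoxic RCC4 cells and 9.43 ± 0.62 in normoxic HepG2 cells (SD, n = 3), whereas PAX2 was at or near 0 in HKC-8 cells. Summed levels of the endothelial and fibroblast markers did not exceed 10.6 CPM in any sample. The leukocyte list summed to 5.43 to 14.3 CPM in the kidney lines and to 2424 to 2955 CPM in HepG2 cells, where LYZ held most of it and PTPRC had no counts.

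Hypoxia raised EGLN1 and CITED2 in all 3 cell lines and EGLN3 in HKC-8 and HepG2 cells, whereas HIF1AN did not pass the test in any of them. Responses were compared by edgeR's quasi-likelihood test on the counts, with a threshold of 0.05 on the Benjamini-Hochberg adjusted p over all genes tested. In HKC-8 cells 5 of 9 members were higher in hypoxia (EGLN1, EGLN3, VHL, CITED2 and SIAH2) and 0 were lower, where 11.2% of all 13536 genes tested were called higher and 9.12% lower. With the replicate number as a block, SIAH1 and P4HTM were also called higher (7 of 9), and the genes called over all went from 1522 higher and 1235 lower to 2836 and 2919. Without HKC-8 normoxia replicate 1 they were 687 and 326. In RCC4 cells EGLN1 and CITED2 were higher and EGLN2 was lower among the 8 members tested, against 25.9% and 24.2% of 12811 genes, so that members were called no more often than genes at large. In HepG2 cells EGLN1, EGLN3 and CITED2 were higher and EGLN2 and SIAH2 were lower among the 8 members tested, against 19.9% and 19.2% of 13623 genes. The members not tested, for low counts, were EGLN3 in RCC4 cells and P4HTM in HepG2 cells. The members tested had a median log2 fold change of 0.32 (HKC-8), -0.0034 (RCC4) and 0.12 (HepG2), beside medians over all genes of 0.0036, -0.0018 and -0.0044.

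**Figure D1:**
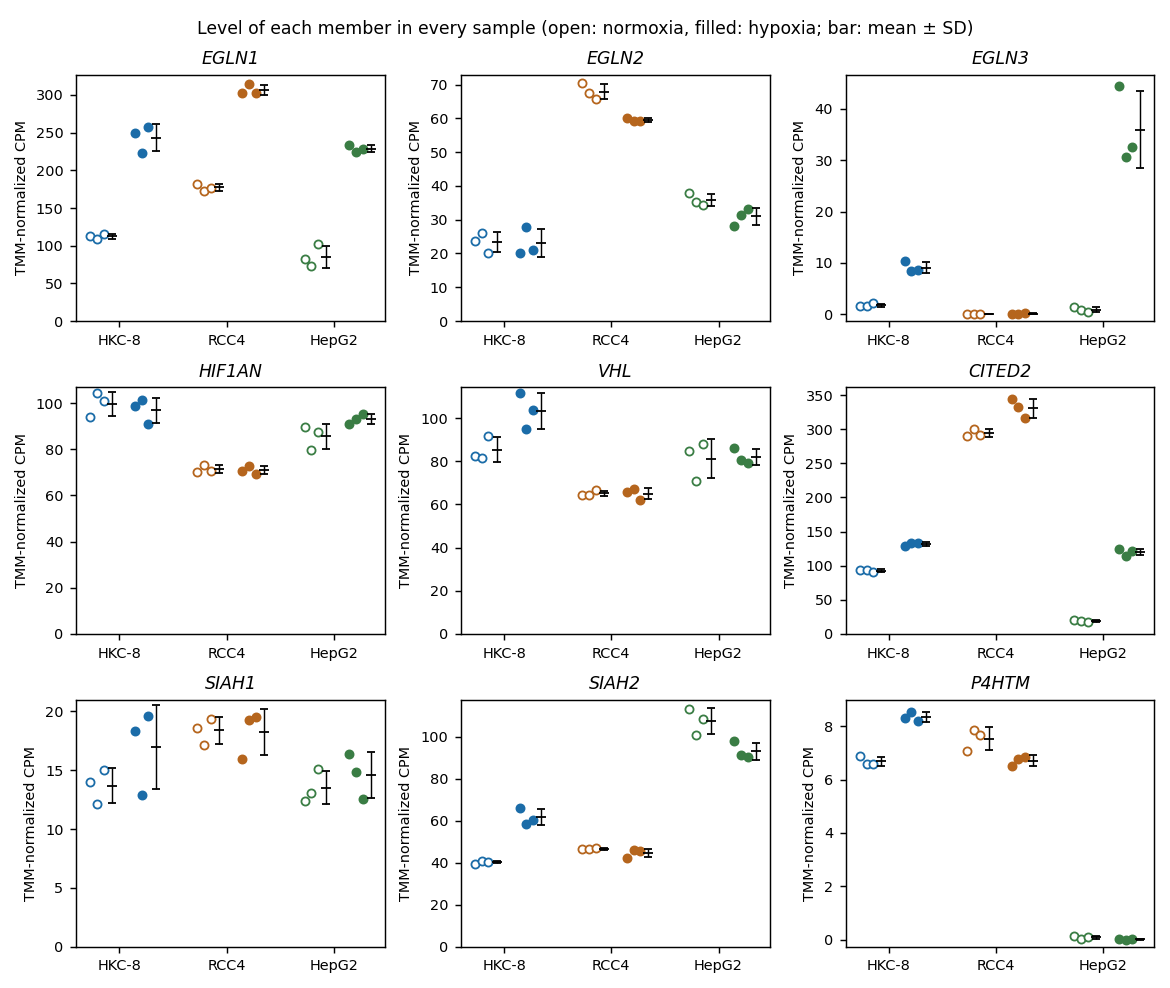
Level of each of the 9 genes in every sample, in CPM scaled by trimmed mean of M-values (TMM), on a linear axis for each gene. Open circles are normoxic and filled circles hypoxic samples, and the black bar is the mean ± SD of 3; EGLN3 reached 30.7 to 44.5 CPM in hypoxic HepG2 cells and at most 0.145 CPM in RCC4 cells.

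The promoters of 4 members are shown because these genes carried the main differences in response: EGLN1 and CITED2 were higher in every line, EGLN3 had the highest fold change, and SIAH2 moved in opposite directions in HKC-8 and HepG2 cells. Each window is RefSeq sequence of GRCh38.p14, written 5′ to 3′ on the strand of the gene, from 250 bases before to 50 bases after the annotated start. Capitals mark ACGTG or GCGTG, the core letters of the HIF response element, read on both strands. A CACGTG run holds ACGTG on both strands and counts as 2 matches. The windows lie on the reverse strand at chr1:231422238-231422537 (EGLN1), chr14:33951025-33951324 (EGLN3), chr6:139374599-139374898 (the first of 3 listed starts of CITED2) and chr3:150763120-150763419 (SIAH2).
EGLN1: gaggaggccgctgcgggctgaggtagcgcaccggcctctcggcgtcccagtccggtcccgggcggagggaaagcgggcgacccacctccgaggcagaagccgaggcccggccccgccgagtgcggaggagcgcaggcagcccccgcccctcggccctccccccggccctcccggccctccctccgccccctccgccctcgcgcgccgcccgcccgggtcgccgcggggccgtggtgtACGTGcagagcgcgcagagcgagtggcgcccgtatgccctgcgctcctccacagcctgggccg
EGLN3: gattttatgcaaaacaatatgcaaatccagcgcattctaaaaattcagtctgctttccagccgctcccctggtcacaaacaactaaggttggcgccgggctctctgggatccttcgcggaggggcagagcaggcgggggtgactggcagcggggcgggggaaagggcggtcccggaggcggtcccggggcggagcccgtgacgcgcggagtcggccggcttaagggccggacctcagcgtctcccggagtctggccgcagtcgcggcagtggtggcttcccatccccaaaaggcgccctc
CITED2: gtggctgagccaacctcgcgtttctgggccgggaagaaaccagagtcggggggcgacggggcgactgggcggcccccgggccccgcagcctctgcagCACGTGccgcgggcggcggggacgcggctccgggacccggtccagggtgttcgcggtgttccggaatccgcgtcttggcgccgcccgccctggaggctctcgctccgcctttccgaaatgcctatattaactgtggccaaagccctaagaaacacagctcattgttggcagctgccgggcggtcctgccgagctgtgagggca
SIAH2: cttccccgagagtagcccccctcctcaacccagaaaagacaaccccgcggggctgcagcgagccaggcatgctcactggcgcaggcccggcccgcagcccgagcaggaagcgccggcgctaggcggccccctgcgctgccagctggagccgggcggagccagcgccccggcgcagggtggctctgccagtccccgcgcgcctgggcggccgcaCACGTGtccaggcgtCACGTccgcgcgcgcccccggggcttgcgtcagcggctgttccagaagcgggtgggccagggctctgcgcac

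The EGLN1 window held 1 match, an ACGTG from -13 to -9 before the start. The SIAH2 window held 3 matches, which 10.1% of all 35116 promoter windows of this length equalled or exceeded. The CITED2 window held 2, both in 1 CACGTG run. The EGLN3 window held none. RefSeq windows were found for 8 of 9 members. Of these 8, 6 held a match in the first window listed, namely EGLN1, EGLN2, CITED2, SIAH1, SIAH2 and P4HTM, where 48.4% of all windows held one. EGLN2 held a CACGTG run in its first window, and HIF1AN held no match. Sequence outside the listed windows was not searched, and whether a match bears on the response was not tested.

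EGLN1 (PHD2), the prolyl hydroxylase regarded as the main oxygen sensor of the pathway, lies on the reverse strand of chromosome 1 (231499497 to 231558033 in GRCh37). In HKC-8 cells its level was 113, 109 and 116 CPM in the normoxic replicates and 249.6, 223 and 257 CPM in the hypoxic ones. In RCC4 cells the values were 182, 173 and 176 CPM in normoxia and 302, 315 and 303 CPM in hypoxia. In HepG2 cells they were 82.0, 72.6 and 102 CPM in normoxia and 233, 225 and 228 CPM in hypoxia. Every hypoxic sample was above every normoxic sample of its line. The fold change was 2.17 in HKC-8 (log2 1.12, standard error 0.08, edgeR adjusted p = 5.33e-05), 1.74 in RCC4 (0.80, 0.03, edgeR adjusted p = 5.81e-15) and 2.68 in HepG2 cells (1.42, 0.09, edgeR adjusted p = 7.71e-08). The lines thus differed less in hypoxia, where group means ranged from 229 to 307 CPM, than in normoxia, where they ranged from 85.4 to 177 CPM.

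EGLN2 (PHD1), a prolyl hydroxylase that is mainly nuclear, lies on the forward strand of chromosome 19 (41304901 to 41314339). In RCC4 cells its level was 70.4, 67.6 and 65.8 CPM in normoxia and 60.1, 59.1 and 59.2 CPM in hypoxia. In HepG2 cells it was 37.9, 35.3 and 34.4 CPM in normoxia and 28.1, 31.5 and 33.2 CPM in hypoxia. Hypoxic samples were below normoxic ones in both lines without overlap. EGLN2 fell by 0.19 on the log2 scale in RCC4 (standard error 0.04, edgeR adjusted p = 0.000957) and by 0.21 in HepG2 cells (0.08, edgeR adjusted p = 0.0434). Neither call held in 1 fit of all 18 samples (edgeR adjusted p = 0.209 and 0.148). The HepG2 call was lost without normoxia replicate 1 or 2 or hypoxia replicate 1 or 2, with edgeR adjusted p between 0.0712 and 0.216. In HKC-8 cells the samples overlapped, at 23.8, 26.0 and 20.2 CPM in normoxia and 20.2, 27.9 and 21.2 CPM in hypoxia, and the log2 fold change was -0.01 (95% interval -0.34 to 0.32, edgeR adjusted p = 0.967). A read-through gene, RAB4B-EGLN2, spans 99.2% of the exon bases of the main EGLN2 transcript and has no row of its own in the tables. In EGLN1, an annotated same-strand gene without a row spans 99.1% of the exon bases. On the opposite strand, annotated noncoding genes without a row span 100% of those of CITED2, 75.7% of those of VHL and 31.9% of those of SIAH2.

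EGLN3 (PHD3), the prolyl hydroxylase best known for its strong hypoxic induction, lies on the reverse strand of chromosome 14 (34393433 to 34931980). As for the other members, this span covers all annotated transcripts, and the main EGLN3 transcript runs from 34393433 to 34420280. The wider span overlaps SPTSSA on the same strand, outside the exons of the main transcript. In HKC-8 cells its level was 1.62, 1.52 and 2.10 CPM in normoxia and 10.3, 8.34 and 8.61 CPM in hypoxia. In HepG2 cells it was 1.43, 0.85 and 0.43 CPM in normoxia and 44.5, 30.7 and 32.7 CPM in hypoxia. All hypoxic samples stood above all normoxic ones in both lines, and the hypoxic HepG2 samples were the highest of the series. The fold change was 5.20 in HKC-8 (log2 2.38, standard error 0.18, edgeR adjusted p = 5.73e-05), rank 101 from the top of 13536 genes, and 39.4 in HepG2 cells (5.30, 0.24, edgeR adjusted p = 1.75e-09), rank 10 of 13623. In RCC4 cells EGLN3 was barely detected, with 1, 1 and 0 counts in normoxia and 3, 5 and 7 in hypoxia. The summed 15 against 2 counts gave a ratio per total count of 6.96, with an exact conditional interval of 1.62 to 62.7 that covers counting error only. By edgeR on the replicates, the difference did not pass without the low-count filter (log2 2.68, edgeR adjusted p = 0.0741). It did not pass in 1 fit of all 18 samples either (2.70, edgeR adjusted p = 0.0939). The 0 allows a level of up to 0.0714 CPM.

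The 3 prolyl hydroxylase transcripts were then set against each other per length, as RPKM (CPM per kilobase) over the main annotated transcript. EGLN3 made up 0.911% ± 0.506 of their sum in normoxic and 16.4% ± 2.85 in hypoxic HepG2 cells (SD, n = 3). In HKC-8 cells its share was 1.72% ± 0.333 in normoxia and 4.76% ± 0.516 in hypoxia. In RCC4 cells it was 0.00661% ± 0.00573 in normoxia and 0.0382% ± 0.0157 in hypoxia. The share of EGLN3 was higher in every hypoxic sample than in any normoxic sample of the same line. EGLN1 held the greatest share in every sample but HepG2 normoxia replicate 2, where EGLN2 was slightly above it on this length only (71.1% EGLN1 with all annotated exons as the length). The share of EGLN2 was 29.4% ± 3.36 in normoxia and 15.7% ± 3.40 in hypoxia in HKC-8 cells, 44.2% ± 0.576 and 28.6% ± 0.601 in RCC4 cells, and 46.2% ± 4.62 and 18.3% ± 1.97 in HepG2 cells. Shares shift with the length used, and with all annotated exons of each gene EGLN3 made up 9.33% in hypoxic HepG2 cells. On that length the EGLN2 share was 14.4% in normoxia and 7.09% in hypoxia in HKC-8 cells, 23.9% and 13.7% in RCC4 cells, and 25.7% and 9.05% in HepG2 cells, again lower in hypoxia. A share also depends on the other genes in the sum. In HKC-8 cells EGLN2 itself had a log2 fold change of -0.01, whereas EGLN1 and EGLN3 rose.

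P4HTM, a prolyl 4-hydroxylase anchored in the endoplasmic reticulum membrane that can act on HIF alpha subunits, lies on the forward strand of chromosome 3 (49027322 to 49044586). In HKC-8 cells its level was 6.87, 6.58 and 6.60 CPM in normoxia and 8.31, 8.54 and 8.19 CPM in hypoxia. In RCC4 cells it was 7.05, 7.87 and 7.68 CPM in normoxia and 6.49, 6.79 and 6.85 CPM in hypoxia. The groups did not overlap in either line and lay in opposite order. The share of all genes whose samples separate in this way was not determined, here or for the other members. Neither difference passed the test, with a log2 fold change of 0.32 in HKC-8 (95% interval 0.07 to 0.58, edgeR adjusted p = 0.0741) and -0.16 in RCC4 cells (-0.37 to 0.05, edgeR adjusted p = 0.194). With the replicate number as a block the HKC-8 difference passed (edgeR adjusted p = 0.0242). HepG2 cells had 6, 2 and 4 counts of P4HTM in normoxia and 1, 0 and 2 in hypoxia, a ratio of 0.242 (exact conditional interval 0.0438 to 0.896, counting error only). By edgeR on the replicates, that difference did not pass without the low-count filter (log2 -1.82, edgeR adjusted p = 0.258). It did not pass in 1 fit of all 18 samples either (-1.86, edgeR adjusted p = 0.0608).

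HIF1AN (factor inhibiting HIF), the asparaginyl hydroxylase that keeps p300 and CBP from the alpha subunit, lies on the forward strand of chromosome 10 (102288829 to 102319755). Its group means were 99.7 ± 5.33 and 96.9 ± 5.47 CPM in normoxic and hypoxic HKC-8 cells, 71.3 ± 1.73 and 71.0 ± 1.70 CPM in RCC4 cells, and 85.6 ± 5.31 and 93.1 ± 2.28 CPM in HepG2 cells (SD, n = 3). Normoxic and hypoxic samples overlapped in HKC-8 and RCC4 cells, whereas in HepG2 cells the 3 hypoxic samples were above the normoxic ones. The log2 fold change had a 95% interval of -0.21 to 0.14 in HKC-8 cells, -0.09 to 0.08 in RCC4 cells and -0.01 to 0.25 in HepG2 cells (edgeR adjusted p = 0.770, 0.968 and 0.133).

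VHL, the substrate recognition subunit of the ubiquitin ligase, lies on the forward strand of chromosome 3 (10183462 to 10195351). In HKC-8 cells its level was 82.5, 81.6 and 92.0 CPM in normoxia and 112, 94.8 and 104 CPM in hypoxia. The hypoxic samples were above the normoxic ones, but by a narrow gap. VHL rose there by 0.28 on the log2 scale (standard error 0.09) and passed the test narrowly (edgeR adjusted p = 0.0499). It did not pass without normoxia replicate 1 or 2 or hypoxia replicate 1 or 3 (edgeR adjusted p between 0.116 and 0.189). In RCC4 cells normoxia and hypoxia overlapped at 65.2 ± 1.17 and 65.0 ± 2.71 CPM, with a 95% interval of the log2 fold change of -0.09 to 0.09. In HepG2 cells they overlapped at 81.3 ± 9.07 and 82.1 ± 3.65 CPM, with an interval of -0.15 to 0.18. The reads of RCC4 cells come from the resident mutated gene and the introduced one together, which gene counts cannot tell apart.

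CITED2, a transcriptional regulator that competes with HIF for the same domain of p300 and CBP, lies on the reverse strand of chromosome 6 (139692944 to 139695785). In HepG2 cells its level was 20.8, 19.1 and 17.4 CPM in normoxia and 124, 115 and 121 CPM in hypoxia. In HKC-8 cells it was 93.9, 93.8 and 90.4 CPM in normoxia and 128, 133 and 134 CPM in hypoxia. In RCC4 cells it was 290.0, 301 and 291 CPM in normoxia and 344, 332 and 317 CPM in hypoxia. Hypoxic samples were above normoxic ones in each line. Over these 3 lines the fold change ran opposite to the normoxic level, which is also its denominator. The fold change was 6.26 in HepG2 (log2 2.65, standard error 0.08, edgeR adjusted p = 1.07e-11), 1.42 in HKC-8 (0.51, 0.07, edgeR adjusted p = 0.00170) and 1.13 in RCC4 cells (0.18, 0.04, edgeR adjusted p = 0.000221). The HepG2 fold change ranked 110 from the top of 13623 genes.

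SIAH1 and SIAH2 are RING-type ubiquitin ligases that act on prolyl hydroxylases, EGLN3 among them, and so stand upstream of the hydroxylases. SIAH2 lies on the reverse strand of chromosome 3 (150458912 to 150481264). In HKC-8 cells SIAH2 was at 39.6, 40.7 and 40.3 CPM in normoxia and 65.9, 58.6 and 60.6 CPM in hypoxia. In HepG2 cells it was at 113, 101 and 108 CPM in normoxia and 97.8, 91.5 and 90.3 CPM in hypoxia. The groups did not overlap in either line, with hypoxia above normoxia in HKC-8 and below it in HepG2 cells. SIAH2 rose 1.54-fold in HKC-8 cells (log2 0.62, standard error 0.08, edgeR adjusted p = 0.00119). It fell by 0.21 on the log2 scale in HepG2 cells (0.06, edgeR adjusted p = 0.0168), a call that was lost without normoxia replicate 1 or hypoxia replicate 2 or 3 (edgeR adjusted p between 0.0714 and 0.0776). In RCC4 cells it was at 46.7 ± 0.434 and 44.6 ± 2.02 CPM, with every hypoxic sample below the normoxic ones. The log2 fold change of -0.06 there (95% interval -0.16 to 0.04) did not pass (edgeR adjusted p = 0.308).

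SIAH1 lies on the reverse strand of chromosome 16 (48390275 to 48482313), and 90.0% of the exon bases of its main transcript lie within the span of LONP2 on the opposite strand. The strand setting of the counting is not given in the sources used here. Group means were 13.7 ± 1.48 and 17.0 ± 3.58 CPM in normoxic and hypoxic HKC-8 cells, 18.4 ± 1.12 and 18.2 ± 1.99 CPM in RCC4 cells, and 13.5 ± 1.42 and 14.6 ± 1.93 CPM in HepG2 cells. The groups overlapped in every line. In HKC-8 cells hypoxia replicate 2, at 12.9 CPM, was far below the other hypoxic replicates at 18.3 and 19.6 CPM. The log2 fold change there was 0.31 (95% interval -0.06 to 0.68, edgeR adjusted p = 0.211). SIAH1 passed in HKC-8 cells without that replicate (edgeR adjusted p = 0.0317) and with the replicate number as a block (edgeR adjusted p = 0.0260).

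**Figure D2:**
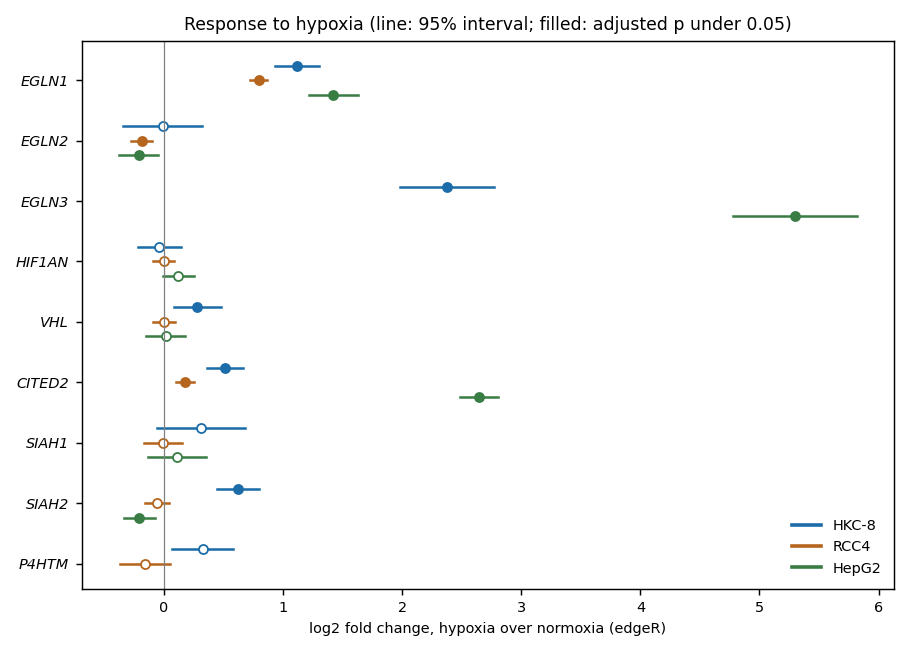
Log2 fold change of each gene, hypoxia over normoxia, in the 3 cell lines, with 95% intervals from edgeR. Filled points passed an adjusted p of 0.05; EGLN1 and CITED2 are filled in all lines, SIAH2 lies at 0.62 in HKC-8 and at -0.21 in HepG2 cells, and members with too few counts to test are left out.

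Whether the cell lines differed in their response was tested by the interaction term of line and oxygen. Between HKC-8 and HepG2 cells, which share an exposure by all labels but the HKC-8 titles, 3 of 9 members differed, against 9.30% of 15046 genes. EGLN3 responded less in HKC-8 than in HepG2 cells by 2.93 on the log2 scale (HKC-8 minus HepG2 -2.93, standard error 0.36, edgeR adjusted p = 0.000115). CITED2 also responded less (-2.14, 0.10, edgeR adjusted p = 4.65e-09), whereas SIAH2 responded more in HKC-8 cells (0.82, 0.10, edgeR adjusted p = 9.50e-05). The difference for EGLN1 was -0.31 (95% interval -0.61 to -0.01, edgeR adjusted p = 0.196), and it passed with the replicate number as a block (edgeR adjusted p = 0.0457). HIF1AN, VHL, EGLN2 and SIAH1 did not pass, with differences from -0.16 to 0.26. P4HTM did not pass and rests on HepG2 samples near 0.

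RCC4 and HKC-8 cells differed in 4 of 9 members, all with the smaller or the more negative response in RCC4 cells, against 15.2% of 14203 genes in either direction. The RCC4 minus HKC-8 difference of log2 fold changes was -0.34 for EGLN1 (standard error 0.09, edgeR adjusted p = 0.0195), -0.35 for CITED2 (0.07, edgeR adjusted p = 0.00479), -0.70 for SIAH2 (0.09, edgeR adjusted p = 0.000207) and -0.50 for P4HTM (0.14, edgeR adjusted p = 0.0234). EGLN1 did not pass without RCC4 normoxia replicate 1 or hypoxia replicate 3 (edgeR adjusted p = 0.0570 and 0.0540). The P4HTM call was lost in 5 of the 12 fits that left out 1 sample. VHL did not pass at -0.30 (0.10, edgeR adjusted p = 0.0711), but did with the replicate number as a block (edgeR adjusted p = 0.0170). RCC4 and HepG2 cells differed in 2 of 9 members, against 22.6% of 14813 genes, so that the members were near the share of all genes. These 9 include EGLN3, with almost no counts in RCC4 cells, and P4HTM, with almost none in HepG2 cells. EGLN3 at -2.65 (95% interval -7.40 to 2.11, edgeR adjusted p = 0.454) and P4HTM at 1.67 (0.05 to 3.29, edgeR adjusted p = 0.135) had wide intervals and did not pass. EGLN3 did not pass for RCC4 minus HKC-8 either (0.33, -1.07 to 1.73, edgeR adjusted p = 0.810). The RCC4 minus HepG2 difference was -0.64 for EGLN1 (0.11, edgeR adjusted p = 0.000240) and -2.48 for CITED2 (0.08, edgeR adjusted p = 6.23e-14). The samples of each line enter 2 of these 3 comparisons, and the labelled exposure differs in both that involve RCC4 cells.

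**Figure D3:**
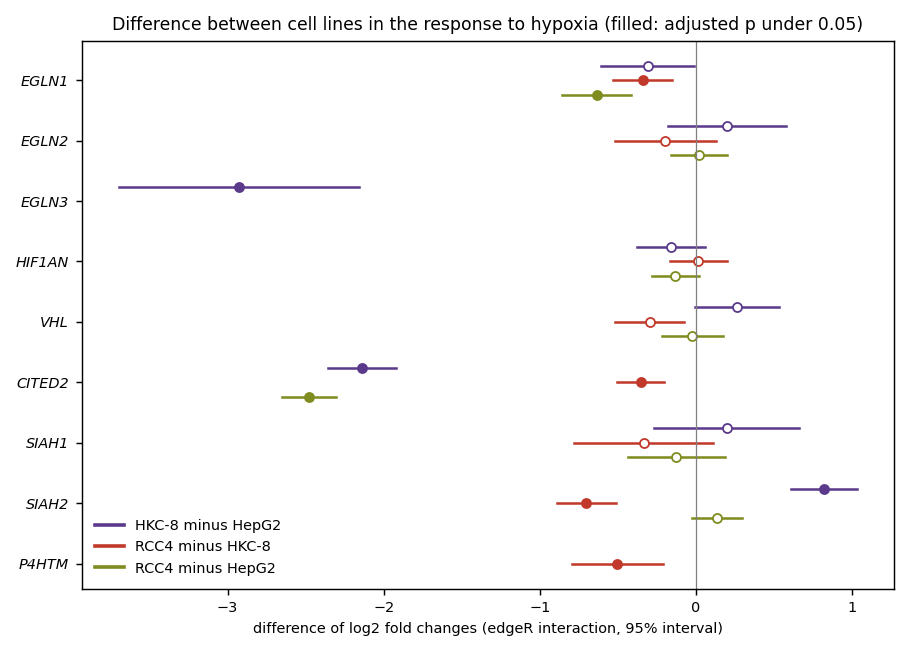
Difference between cell lines in the log2 fold change of each gene, with 95% intervals from the edgeR interaction fits. Filled points passed an adjusted p of 0.05; EGLN3 and CITED2 lie at -2.93 and -2.14 for HKC-8 minus HepG2 and SIAH2 at 0.82, and comparisons with a line that had almost no counts of the gene are left out.

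Before hypoxia, the 3 lines already differed in most members, as they did in most genes. RCC4 and HKC-8 cells differed in 8 of 9 members in normoxia, against 80.8% of 14806 genes. HepG2 and HKC-8 cells differed in 7 of 9, against 83.0%, and HepG2 and RCC4 cells in 9 of 9, against 83.3%. These shares are near those of all genes. CITED2 stood at 294 ± 5.97 CPM in RCC4, 92.7 ± 1.95 in HKC-8 and 19.1 ± 1.70 in HepG2 cells (SD, n = 3), and every step passed, with a fold of 15.3 between RCC4 and HepG2 (edgeR adjusted p = 1.62e-14). EGLN1 and EGLN2 were both highest in RCC4 cells. EGLN1 followed in HKC-8 and was lowest in HepG2 cells (HepG2 minus HKC-8 log2 -0.38, edgeR adjusted p = 0.00262), whereas EGLN2 was lowest in HKC-8 cells (HepG2 minus HKC-8 0.64, edgeR adjusted p = 1.50e-05). SIAH2 was highest in HepG2 cells, 2.71-fold above HKC-8 (edgeR adjusted p = 7.32e-11) and 2.32-fold above RCC4 cells (edgeR adjusted p = 4.42e-10).

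HIF1AN was highest in normoxic HKC-8, then HepG2, then RCC4 cells, and each step passed, though HKC-8 exceeded HepG2 by only 1.15-fold (edgeR adjusted p = 0.0150). VHL was lowest in RCC4 cells, 1.30-fold under HKC-8 cells (edgeR adjusted p = 0.000769), and HKC-8 and HepG2 cells did not differ beyond their spread (log2 -0.05, 95% interval -0.23 to 0.13, edgeR adjusted p = 0.577). SIAH1 was higher in RCC4 than in HKC-8 cells by 0.44 on the log2 scale (edgeR adjusted p = 0.00251), with no difference passing between HKC-8 and HepG2 cells. EGLN3 was highest in HKC-8 cells and lower in HepG2 cells by 0.93 on the log2 scale (edgeR adjusted p = 0.0235). That call was lost without HepG2 normoxia replicate 2 or 3 (edgeR adjusted p = 0.0607 and 0.0751). With 2 counts over the 3 normoxic RCC4 samples against 449 in HKC-8 and 119 in HepG2 cells, EGLN3 was 128 times (exact conditional interval 35.1 to 1056) and 65.0 times (17.6 to 543) as high per total count in these lines. P4HTM, with 12 counts over the normoxic HepG2 samples, was 74.0 times as high in HKC-8 (42.3 to 144) and 82.5 times as high in RCC4 cells (47.0 to 160), which did not differ from each other beyond their spread.

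Levels were compared between genes only in RPKM. CITED2 was the most abundant member per length in normoxic HKC-8 cells at 38.9 ± 0.820 RPKM and in RCC4 cells at 123 ± 2.51 RPKM in normoxia and 139 ± 5.83 RPKM in hypoxia (SD, n = 3). In normoxic HepG2 cells SIAH2 was the most abundant at 46.5 ± 2.67 RPKM, and CITED2 stood at 8.03 ± 0.714 RPKM. EGLN3 was the least abundant member in normoxic HKC-8 cells and in RCC4 cells, and no RCC4 sample exceeded 0.0535 RPKM. In HepG2 cells it moved from 0.334 ± 0.185 to 13.3 ± 2.76 RPKM, above HIF1AN at 7.20 ± 0.176 RPKM, though with all annotated exons as the length the order of these was reversed (4.88 against 6.70 RPKM).

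Other genes of the pathway were read from 6 lists of partners. Among 6 subunits and activators of the VHL ubiquitin ligase, 0 were higher in any line, and 1 was lower in HKC-8 cells, 2 in RCC4 cells and 5 in HepG2 cells, where 9.12%, 24.2% and 19.2% of all genes were. Of 9 proteins that bind prolyl hydroxylases or VHL, 4 were higher and 0 lower in each line, where 11.2%, 25.9% and 19.9% of all genes were higher in HKC-8, RCC4 and HepG2. AKAP12, a kinase scaffold, rose in HKC-8 (log2 0.70), RCC4 (1.79) and HepG2 cells (1.55), and AJUBA, a LIM protein of hydroxylase complexes, rose by 0.33, 0.21 and 0.45 (edgeR adjusted p from 8.83e-16 to 0.0412). Of 16 genes of HIF alpha and VHL turnover, 1 was higher and 1 lower in HKC-8 cells, where 11.2% and 9.12% of all genes were. In RCC4 cells 4 were higher and 4 lower among 15 tested, close to the shares of all genes (25.9% and 24.2%). In HepG2 cells 2 were higher and 3 lower, where 19.9% and 19.2% of all genes were. WSB1, a ubiquitin ligase subunit reported to act on VHL, rose in all 3 lines (log2 0.87, 0.58 and 1.06 in HKC-8, RCC4 and HepG2, edgeR adjusted p = 0.00168, 1.45e-09 and 1.46e-08).

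Of the 4 CITED relatives and coactivators, 3 were tested and 0 were lower in any line, with 0, 1 and 2 higher in HKC-8, RCC4 and HepG2, where 11.2%, 25.9% and 19.9% of all genes were. Among the 5 HIF subunit genes, of which 4 were tested, EPAS1 (HIF-2 alpha) rose in all 3 lines, by 1.23, 0.26 and 0.39 on the log2 scale, and HIF1A fell by 1.16 in HKC-8 and by 0.21 in RCC4 cells but did not pass in HepG2 cells (log2 -0.03, edgeR adjusted p = 0.806). Of 11 enzymes that make or use the co-substrate and products of the hydroxylases, 2 were higher in each line. Of all genes, 11.2%, 25.9% and 19.9% were higher in HKC-8, RCC4 and HepG2 cells. Of the enzymes, 4 were lower in HKC-8 cells, 8 in RCC4 cells and 6 in HepG2 cells, where 9.12%, 24.2% and 19.2% of all genes were. IDH2, which makes 2-oxoglutarate in mitochondria, rose in all lines (log2 1.18, 0.41 and 0.60 in HKC-8, RCC4 and HepG2). IDH3A, fumarate hydratase (FH) and the succinate dehydrogenase subunits SDHB and SDHD were lower in all 3 lines, between -0.46 and -0.17 on the log2 scale (edgeR adjusted p from 3.87e-06 to 0.0435).

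The genes whose levels moved most like each member were found over the 18 samples, as Pearson r of log2 CPM centred within each cell line, among 15306 genes. These values describe samples that share 2 conditions in each line, so that any gene with a similar hypoxic response scores high. EGLN1 was most like ANKZF1 (r = 0.988) and PAM (r = 0.988). CITED2 was most like CHST15 (r = 0.991) and SMIM3 (r = 0.988), EGLN3 like SMYD2 (r = 0.979) and PLEKHA2 (r = 0.972), and SIAH2 like MTHFD2 (r = 0.961) and SESN2 (r = 0.95). The other 5 members had no gene at 0.95 or above.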

How the data were processed

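PolyA+ RNA libraries of 18 samples were analysed. Per the labels and the study's methods, the authors trimmed adapters with Trim Galore 0.3.3, aligned reads to GRCh37 with TopHat 2.0.8b and Bowtie 1.0.0, removed fragments that did not map uniquely with SAMtools 0.1.19, and counted reads on UCSC genes with HTSeq 0.5.4p3 (intersection-strict). The deposited files hold whole-number counts as HTSeq gave them. Reads that map to near-identical copies or lie wholly inside more than 1 gene are therefore missing from them, and the strand setting is not given in the sources used here.

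Counts were fitted with edgeR 4.0.16 in R 4.3.3 (filterByExpr, TMM, glmQLFit and glmQLFTest, Benjamini-Hochberg adjustment over all genes tested, threshold 0.05). Cell lines were fitted apart, interactions on 12 samples, and normoxic levels on 9. Standard errors were derived from the log2 fold change and its quasi-likelihood F (estimate over root F). CPM use TMM factors of all 18 samples. RPKM divide by the MANE Select transcript of GENCODE v44 on GRCh37, and EGLN shares are percent values computed from them. Ratios of genes with few counts have exact conditional 95% intervals. The tests were checked on simulated counts with log2 changes of 1.5 in size. They recovered 90.5% to 99% of the changed genes, and 3.57% to 7.14% of calls were false. Smaller changes, such as many of those reported here, were not simulated. Replicates of a group differed by more than sampling noise in every pair (chi-square per degree of freedom 4.57 to 91.5).

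The members and lists were chosen with earlier results of these data known. Other pathway genes were named when called in the same direction in all 3 lines, or when called in any line with a log2 fold change of 1 or more in size. The pair of genes most like each member was named at r of 0.95 or more. Normoxic and hypoxic samples of a line share replicate numbers in their titles. Across genes, how far same-numbered samples lay from their group means correlated at r = 0.109 to 0.453 in HKC-8 cells, where the numbers were taken to pair the samples, at -0.0103 to 0.0333 in RCC4 cells and at 0.0617 to 0.184 in HepG2 cells, where they were not. In HKC-8 cells differently numbered samples gave -0.469 to 0.116. The highest of these, normoxia replicate 1 with hypoxia replicate 2, was above the 0.109 of the samples numbered 1. The pairing is thus not clear for replicate 1. The main fits used no block in any line. Alternatives were a block on the replicate number, a joint fit of the 18 samples, DESeq2 1.42.0, size factors by median of ratios, dropping the filter or requiring 10 counts throughout, leaving out single samples, CPM of the total count and raw counts for the shares. All annotated exons as the length was added after the data were examined. ChIP-seq data of the study were not used here.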

Additional observations from a re-analysis of the deposited data

Results flagged for a closer look

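Several members differed between cell lines in their response to hypoxia by a test of the difference itself, the interaction of cell line and oxygen in edgeR. For HKC-8 minus HepG2 cells the difference of log2 fold changes was -2.93 for EGLN3, -2.14 for CITED2 and 0.82 for SIAH2. SIAH2 was called higher in hypoxic HKC-8 and lower in hypoxic HepG2 cells. The HepG2 call was lost in 3 of the 6 fits that left out 1 sample. For RCC4 minus HKC-8 cells the difference was -0.34 for EGLN1, -0.35 for CITED2, -0.70 for SIAH2 and -0.50 for P4HTM. For RCC4 minus HepG2 cells it was -0.64 for EGLN1 and -2.48 for CITED2. Of all genes, 9.30% differed for HKC-8 minus HepG2, 15.2% for RCC4 minus HKC-8 and 22.6% for RCC4 minus HepG2 cells. For the last pair the members were near that share, counting EGLN3 and P4HTM, which each had almost no counts in 1 of these lines. The RCC4 minus HKC-8 calls of EGLN1 and P4HTM were lost in 1 fit of all 18 samples (edgeR adjusted p = 0.0762 and 0.0841). In the comparisons with RCC4 cells the labelled oxygen level and duration differ too, so that cell line and exposure cannot be told apart. The titles of hypoxic HKC-8 samples state 0.1% and those of HepG2 samples 0.5%, so the same limit holds for that pair if the titles are right.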

How the results depend on the processing

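The number of members called in the single cell lines kept within 1.5 times its value under every alternative, except members lower in hypoxia. With 1 fit of all 18 samples the RCC4 count was 0 and the HepG2 count 1, both by the loss of EGLN2 (adjusted p = 0.209 and 0.148), and the HepG2 count ranged from 0 to 2 when a sample was left out. For differences in response, the fit of 18 samples called 2 members higher for HKC-8 minus HepG2 and 2 lower for RCC4 minus HKC-8, and leaving out a sample gave 1 to 2 and 2 to 6. At least 10 counts in every sample left 3 members lower in normoxic HepG2 than HKC-8 cells, since EGLN3 and P4HTM were then not tested. Over all genes, HKC-8 calls were 2503 higher and 2510 lower in the fit of 18 samples, 2836 and 2919 with the replicate block, and 687 to 1794 and 326 to 1489 when a sample was left out, the lowest without normoxia replicate 1; RCC4 calls were 1867 and 1419 in the fit of 18 samples. The main counts were 1522 and 1235 in HKC-8 and 3318 and 3105 in RCC4 cells. In HKC-8 cells the block added SIAH1 and P4HTM to the calls and DESeq2 added P4HTM (adjusted p = 0.0337), whereas VHL was lost with median-of-ratios size factors (0.0510) and without the filter (0.0525). For RCC4 minus HKC-8, EGLN1 (0.0762) and P4HTM (0.0841) did not pass in the fit of 18 samples nor P4HTM without the filter (0.0573), and VHL passed with DESeq2 (0.0476). The replicate block changed no call of a member beside those given here and in the comparisons above. Only in HKC-8 cells were the numbers taken to pair the samples. EGLN1, EGLN3 and CITED2 kept their direction and call within each line in which the main fit tested them, under every alternative that tested them. The EGLN3 share was 1.27%, 3.30% and 12.1% from raw counts and 0.960%, 2.47% and 9.33% with all exons as the length (HKC-8 normoxia, HKC-8 hypoxia, HepG2 hypoxia), and 0.0210% in hypoxic RCC4 cells with all exons.

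Apart from comparisons with a line that had almost no counts of the gene, signs turned only for members near 0 that did not pass. With CPM of the total count, 15 of 54 group means moved by more than their SD. The log2 fold change of VHL in RCC4 was -0.00038 with DESeq2, -0.00039 with median-of-ratios size factors and -0.0037 in the fit of 18 samples, that of HIF1AN in RCC4 was 0.00063 without the filter, and SIAH1 in normoxic HepG2 minus HKC-8 was -0.079 without the filter. Leaving out a sample gave -0.17 to 0.077 for EGLN2 and -0.083 to 0.0042 for HIF1AN in HKC-8, -0.021 to 0.014 for HIF1AN, -0.023 to 0.036 for VHL and -0.055 to 0.084 for SIAH1 in RCC4, and -0.064 to 0.070 for VHL in HepG2. For differences in response it gave -0.014 to 0.065 for HIF1AN (RCC4 minus HKC-8), -0.042 to 0.071 for EGLN2 and -0.076 to 0.062 for VHL (RCC4 minus HepG2), and for SIAH1 in normoxic HepG2 minus HKC-8 -0.14 to 0.017. The causes were not tested. Depth limits EGLN3 in RCC4 and P4HTM in HepG2 cells, where few counts leave wide intervals.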
